A study of Mus musculus with 4 samples.

Results

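Runx2, Sp7, Twist1, Alpl, Ibsp, Spp1, Sox9, Sox5 and Sox6 are 9 genes of the bone and cartilage programs, taken by symbol from the 22096 gene symbols measured in palatal mesenchyme of the mouse embryo. They were represented by 18 RefSeq transcript entries, and the level of a gene in an embryo was the sum of the values of its entries. The unit was FPKM, fragments per kilobase of transcript scaled to the mapped reads of the library. The correction for transcript length allowed levels to be compared between genes. Comparison between embryos rested on the scaling to mapped reads, and the effect of another scaling is given below. At E13.5 (embryonic day 13.5) the palatal shelves were microdissected from single embryos, and the cells that expressed red fluorescent protein from an Osr2RFP knock-in allele were collected by fluorescence-activated cell sorting and sequenced. The 4 embryos came from matings of Foxf2+/- parents and all carried 1 Osr2RFP allele, which limits the data to the Osr2-expressing part of the palatal mesenchyme. The control group held 1 Foxf2+/+ Osr2RFP/+ embryo, here the wild-type control, and 1 Foxf2+/- Osr2RFP/+ embryo, here the heterozygous control. The mutant group held 2 Foxf2-/- Osr2RFP/+ embryos, here the mutants, which lacked Foxf2 in every tissue. Each control genotype thus rested on 1 embryo, and with 2 embryos against 2 an exact permutation test cannot give a two-sided p below 0.333, so that single genes were tested only in a limma model fitted across all genes.

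Mesenchymal cells of the palate derive largely from the cranial neural crest and later form the bony palate by intramembranous ossification, in which bone forms without a cartilage model. Runx2 commits cells to the osteoblast lineage, Sp7 (osterix) acts after it, and Alpl, Ibsp and Spp1 are products of that lineage. Twist1 restrains osteoblast differentiation by binding Runx2, while Sox9 commits cells to cartilage and cooperates there with Sox5 and Sox6.

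Foxf2 itself followed the labelled genotypes, with an FPKM of 85.4 in the wild-type control, 45.1 in the heterozygote, and 1.41 and 2.28 in the mutants. Osr2, the gene that drives the reporter, lay between 129 and 147 FPKM in the 4 embryos. The summed FPKM of 9 palatal mesenchyme markers lay between 669 and 810, with each at a mean of at least 1 FPKM. Single markers differed more than this sum. In both mutants Prrx1, Prrx2, Pdgfra, Meox2, Tbx22 and Shox2 lay below both controls, an arrangement of 35.8% of all genes tested below. Osr1 lay above both (9.89% of genes), and Osr2 and Barx1 overlapped. Shox2 was at 114 and 73.4 FPKM in the controls, against 47.7 and 63.7 in the mutants. Relative depth, taken from the ratio of coverage to FPKM, differed by at most 1.19-fold. The summed level of 8 blood markers was 172 FPKM in the wild-type control, 1163 in the heterozygote, and 944 and 2498 in the mutants, with overlapping groups. Macrophage markers (8 measured) lay between 23.2 and 37.0 FPKM and also overlapped. The groups did not overlap for 5 other cell types, all at low levels. In the controls and the mutants, in that order, the 8 epithelial markers summed to 7.64 and 8.15 against 8.34 and 9.55 FPKM, the 5 glial markers to 1.88 and 1.31 against 6.29 and 2.47 FPKM, the 5 endothelial markers to 0.404 and 0.608 against 0.893 and 1.5 FPKM, and the 7 muscle markers to 0.872 and 0.922 against 0.454 and 0.402 FPKM. The 2 markers of hypertrophic cartilage summed to 0.296 and 0.234 FPKM in the controls, against 0.204 and 0.186 FPKM in the mutants. The part of these cells in the results was not tested. A fall in the number of cells of a type and a fall in RNA per cell cannot be told apart in such bulk libraries.

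The 9 genes covered a wide range of expression in the sorted mesenchyme, with Twist1 and Runx2 highest and Spp1 and Ibsp near the limit of detection. Twist1 was the most abundant, at rank 245 of 21352 genes by mean FPKM, followed by Runx2 at rank 1481, Sox9 at rank 2732 and Alpl at rank 3425. Sox5 (rank 8581), Sox6 (rank 8630) and Sp7 (rank 10267) were intermediate, and Spp1 (rank 12642) and Ibsp (rank 14501) were lowest. Over the 4 embryos the ranges of neighbouring genes in this order did not overlap, except between Sox9 and Alpl and between Sox5 and Sox6. Of the 9 genes, 7 passed the filter on low values, a mean of at least 1 FPKM over the 4 embryos, and entered the test over 11154 genes. Ibsp and Spp1 did not.

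**Figure D1:**
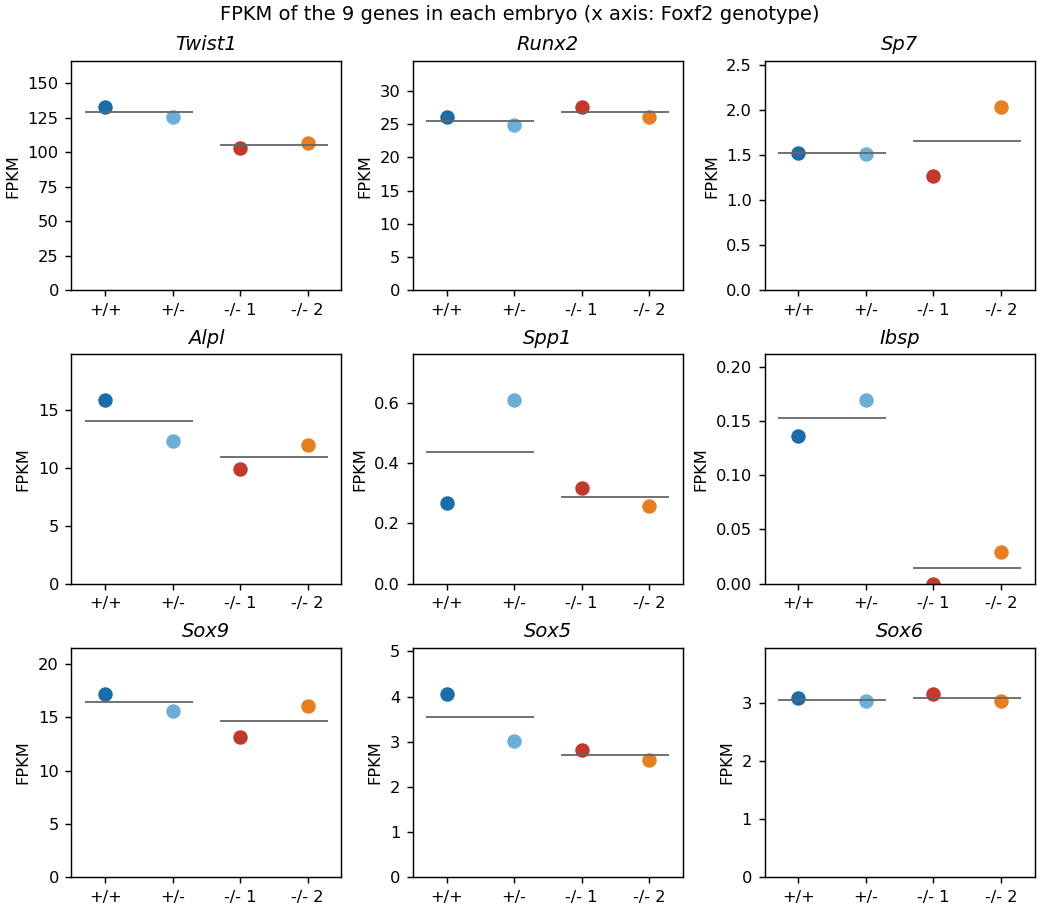
FPKM of each gene (y axis, starting at 0, with its own scale in each panel) in the Foxf2+/+, Foxf2+/- and 2 Foxf2-/- embryos (x axis); each point is 1 embryo and each grey line the mean of the 2 control or 2 Foxf2-/- embryos. Both Foxf2-/- points lie below both control points for Twist1, Alpl, Sox5 and Ibsp, and the Runx2 and Sox6 points are nearly level.

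In the comparison of the Foxf2-/- embryos with the controls, which asks what loss of this forkhead transcription factor changes in the palatal mesenchyme, none of the 7 tested genes was called. A call required a Benjamini-Hochberg adjusted p from limma under 0.05 together with a difference above 1.5-fold, and it was met by 7 of 11154 genes (0.0628%). Unadjusted, 2 of the 7 genes, Twist1 and Alpl, had a limma p under 0.05, against 13% of all genes tested. None differed by more than 1.5-fold from both controls, as 1.4% of all genes did. The values of both Foxf2-/- embryos lay below both controls for 3 of the 7 (Twist1, Alpl and Sox5), an arrangement shown by 35.8% of all genes tested, and above both for 1 of the 7 (Runx2), shown by 9.89%. The same 3 genes were ordered Foxf2+/+ above Foxf2+/- above both Foxf2-/- embryos, as were 23.7% of all genes. The median log2 change of the 7 was -0.17, beside -0.08 over all genes, of which 70.3% had a lower mean in the Foxf2-/- embryos.

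This lower background depended on the scaling between embryos. When the embryos were rescaled by median ratios, the median over all genes moved by 0.08 on the log2 scale, and the share of genes below both controls became 21.6% and the share above both became 21.0%. Twist1, Alpl and Sox5 still lay below both controls and Runx2 above, with log2 changes of -0.22, -0.27, -0.29 and 0.16, and Sox6 then also lay above both, at 0.09.

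Runx2, the master regulator of the osteoblast lineage, spans chr17:44740950-44951746 on the minus strand of the mm9 assembly, and has entries from a distal and a proximal transcription start site. The bases just upstream of the distal start are shown because most of the Runx2 level was assigned to entries that begin there. They are 250 bases of mm9, chr17:44951747-44951996, written 5′ to 3′ on the strand of the gene. Capitals mark a RUNX core, searched as TGTGGT on either strand and so found here as ACCACA.
Runx2 distal start: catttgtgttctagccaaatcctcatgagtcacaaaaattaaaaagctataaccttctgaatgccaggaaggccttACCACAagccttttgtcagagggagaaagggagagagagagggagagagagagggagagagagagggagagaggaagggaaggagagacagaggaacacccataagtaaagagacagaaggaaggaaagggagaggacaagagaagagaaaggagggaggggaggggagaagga
The distal window held 1 RUNX core, 174 to 169 bases upstream of the start, where 11.8% of such windows before 22949 starts of the annotated entries held at least 1. A forkhead core, searched as TAAACA on either strand, was not present in it, beside 10.3% of all windows. A match of 6 letters is a description of the sequence and was not tested for binding.

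Summed over its entries, Runx2 was at 26.13 FPKM in the wild-type control, 24.8 in the heterozygote, and 27.6 and 26.14 in the mutants. The groups did not overlap, but the lower mutant and the higher control were almost equal, and the 4 values differed by at most 1.11-fold. The log2 change was 0.08 ± 0.09 (SE), with a 95% limma interval from -0.13 to 0.28 and an adjusted p of 0.748.

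The distal start, known for its use in osteoblasts, gave 23.5 and 21.3 FPKM in the wild-type and heterozygous controls and 24.5 and 22.1 FPKM in the Foxf2-/- embryos. This was 89.8% and 86.0% of the Runx2 level in the controls and 88.6% and 84.5% in the mutants. The proximal start gave 2.66 and 3.48 FPKM in the controls and 3.14 and 4.06 FPKM in the mutants, or 10.2%, 14.0%, 11.4% and 15.5% of the gene. By these estimates, which divide reads common to overlapping entries, the distal start predominated in each embryo. For both starts the control and mutant ranges overlapped. Of the 2 entries that share the distal start, the shorter carried between 75.0% and 86.6% of the gene.

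Twist1, the basic helix-loop-helix factor that restrains Runx2, lies at chr12:34642536-34644696 on the plus strand. Its FPKM was 133 in the wild-type control, 125 in the heterozygote, and 103 and 107 in the mutants. Both mutants were below both controls, and the mutants differed from each other by less than they did from either control. The log2 change was -0.30 ± 0.08 (SE), with a 95% interval from -0.49 to -0.10 that lay inside 1.5-fold, and the limma p of 0.0091 became 0.291 after adjustment over all genes. Against the wild-type control alone the log2 difference of the mutant mean was -0.34, and against the heterozygous control alone it was -0.25.

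A ratio of 2 genes within an embryo does not depend on the scaling between embryos, and was computed for Runx2 after the values had been seen. Twist1 exceeded Runx2 by 5.09-fold and 5.05-fold in the wild-type and heterozygous controls and by 3.74-fold and 4.09-fold in the Foxf2-/- embryos. The mutants were thus below the controls in this ratio, with means of 3.92 ± 0.25 (SD, 2 embryos) and 5.07 ± 0.03 (SD, 2 embryos). Alpl over Runx2 was also lower in both mutants (0.359 and 0.460) than in both controls (0.608 and 0.496), as was Sox9 over Runx2 (0.478 and 0.617 against 0.660 and 0.630), while Sp7 over Runx2 overlapped. Having been picked from the values, these ratios were given no test. The Sox9 ratio was apart only narrowly, at 0.617 against 0.630, and Sox9 itself overlapped between the groups. Runx2, the shared denominator, was among the 9.89% of genes above both controls, and 70.3% of all genes had a lower mean in the mutants. How many other genes were lower over Runx2 was not computed, so the ratios are not read as particular to these genes.

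**Figure D2:**
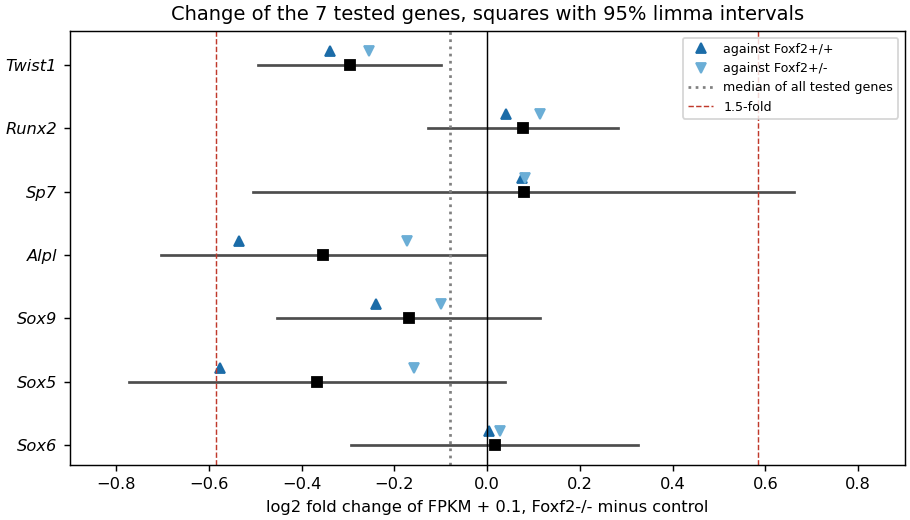
Log2 fold change on FPKM + 0.1 of the Foxf2-/- embryos against the controls (x axis) for the 7 tested genes (y axis): squares are the limma estimates with 95% intervals, triangles the mutant mean against each single control, the dotted line the median of all tested genes and the dashed lines 1.5-fold. The intervals of Runx2, Twist1, Sox9 and Sox6 lie within 1.5-fold in either direction, while those of Sp7, Alpl and Sox5 reach past it.

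Sp7, the zinc finger factor needed for osteoblasts to form after Runx2, lies at chr15:102187608-102196702 on the minus strand and was expressed at low level. Its FPKM was 1.52 in both controls, and 1.27 and 2.03 in the Foxf2-/- embryos. The mutants lay on either side of the controls and differed from each other by 0.64 on the log2 scale. The log2 change was 0.08 ± 0.25 (SE) with an adjusted p of 0.922 in limma, and its 95% interval, from -0.50 to 0.66, did not exclude a change of 1.5-fold upward. Without the second Foxf2-/- embryo the estimate was -0.24, and without the first it was 0.40, so that its sign rested on 1 embryo.

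Alpl, which encodes tissue-nonspecific alkaline phosphatase and appears early in the lineage, lies at chr4:137297647-137352292 on the minus strand. Its FPKM was 15.9 in the wild-type control, 12.3 in the heterozygote, and 9.91 and 12.0 in the mutants. The groups did not overlap, but the heterozygous control was closer to the mutants than to the other control. The log2 change was -0.35 ± 0.15 (SE), with a limma p of 0.0477 that became 0.378 after adjustment over all genes. It was -0.54 against the wild-type control alone and -0.17 against the heterozygous control alone.

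Ibsp and Spp1 encode bone sialoprotein and osteopontin, acidic glycoproteins of mineralized matrix, and lie in the same gene cluster on the plus strand of chromosome 5, Ibsp at chr5:104728306-104740491 and Spp1 at chr5:104864130-104870072. The 250 bases before the Ibsp start, chr5:104728056-104728305 of mm9, are shown because this was the only one of 13 start windows of the 9 genes to hold a forkhead core. Over all starts of the annotated entries, 10.3% of windows held at least 1, so the 9 genes do not stand out in this. In the Ibsp window the core is in capitals, as TGTTTA, 150 to 145 bases upstream of the start.
Ibsp: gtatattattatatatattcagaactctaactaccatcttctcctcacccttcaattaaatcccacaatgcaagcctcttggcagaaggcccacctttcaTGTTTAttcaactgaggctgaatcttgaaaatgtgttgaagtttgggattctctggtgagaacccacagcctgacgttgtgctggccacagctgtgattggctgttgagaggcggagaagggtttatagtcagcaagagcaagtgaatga
This window held no RUNX core. A RUNX core was present before the more upstream of the 2 Spp1 starts, 128 to 123 bases from it, but not before the other. The windows of Sp7, Twist1, Alpl, Sox9, Sox5 and Sox6 held neither motif.

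Ibsp was at 0.136 FPKM in the wild-type control and 0.169 FPKM in the heterozygous control, was listed at 0 in the first Foxf2-/- embryo, and was at 0.0296 FPKM in the second. Both mutants were below both controls, at a level where coverage times transcript length came to only 361, 533, 0 and 89.8 sequenced bases in the 4 embryos, so that few reads lay behind it. On the scale of log2(FPKM + 0.1) the difference was -1.15, but it ranged from -0.18 with a pseudocount of 1 FPKM to -3.02 with one of 0.01 FPKM, and no change can be sized at this depth. Spp1 was at 0.268 and 0.609 FPKM in the wild-type and heterozygous controls and at 0.317 and 0.259 FPKM in the mutants. The groups overlapped, the direction of the difference changed without the heterozygous control (a log2 value of 0.07 in place of -0.40), and nearly all of the signal fell on 1 of its 5 entries.

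Other products of late bone were equally scarce. Dspp, Mepe, Phospho1 and Bglap2 were listed at 0 in every embryo, and Dmp1, a matrix protein of osteocytes, did not exceed 0.0481 FPKM. The summed level of 4 markers of mature osteoblasts and osteocytes was 0.287 and 0.855 FPKM in the controls and 1.16 and 0.298 FPKM in the mutants, with overlapping groups.

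Sox9, the factor that commits mesenchyme to cartilage, lies at chr11:112643524-112649071 on the plus strand. Its FPKM was 17.2 in the wild-type control, 15.6 in the heterozygote, and 13.2 and 16.1 in the mutants. The second mutant lay between the controls and the first lay below them. The log2 change was -0.17 ± 0.12 (SE), with a 95% interval from -0.45 to 0.11 and an adjusted p of 0.589 in limma. It was -0.03 without the first mutant and -0.31 without the second.

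Sox5 and Sox6, which act with Sox9 on cartilage matrix genes, were close to each other in level. Sox5, at chr6:143781349-144158078 on the minus strand, was at 4.06 FPKM in the wild-type control, 3.02 in the heterozygote, and 2.80 and 2.59 in the mutants. The mutants were below both controls, with the wild-type control standing apart from the other three. The log2 change was -0.37 ± 0.17 (SE) with an adjusted p of 0.422 in limma, and was -0.58 against the wild-type control alone and -0.16 against the heterozygous control alone.

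Sox6, at chr7:122614858-123182258 on the minus strand, was at 3.08 and 3.03 FPKM in the wild-type and heterozygous controls and at 3.16 and 3.03 FPKM in the mutants. Its 4 values were almost the same, the log2 change was 0.02 ± 0.13 (SE) with an adjusted p of 0.972 in limma, and the 95% interval ran from -0.29 to 0.33. The sum of Sox5 and Sox6 over Sox9 was 0.415 and 0.387 in the controls and 0.452 and 0.348 in the mutants, so that the groups overlapped in the balance of the 3 SOX genes too.

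**Figure D3:**
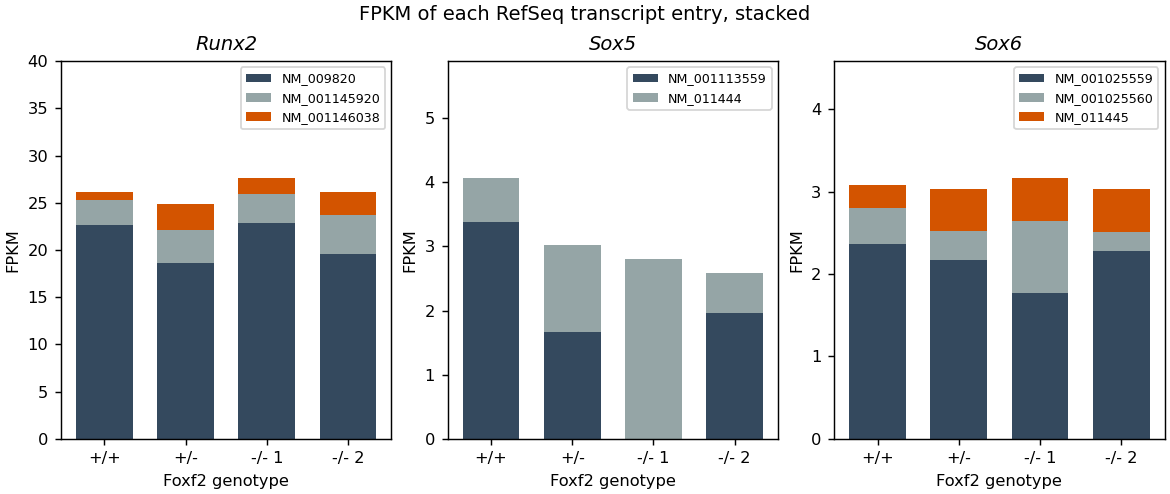
FPKM (y axis) of each RefSeq entry of Runx2, Sox5 and Sox6, stacked in 1 bar per embryo (x axis, Foxf2 genotype), so that the bar height is the level of the gene. The split changes between embryos, as in the first Foxf2-/- embryo, where nearly all Sox5 falls on the entry that is the smaller part in the wild-type control.

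Levels summed over entries were steadier than the entries themselves. Of the 2 Sox5 entries, which share a start and differ in length (2770 and 2917 bases), the shorter carried 83.2% of the gene in the wild-type control, 55.3% in the heterozygous control, 0.0382% in the first Foxf2-/- embryo and 75.5% in the second. The split thus differed more between the 2 mutants than between the groups. For Sox6 the entry with the most upstream start carried 76.6% and 71.7% in the controls and 56.1% and 75.5% in the mutants, and again 1 mutant stood apart. These shares are estimates that divide reads common to overlapping entries, and no difference in transcript use was read from them.

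The wider bone and cartilage programs were described with 7 lists, of which 50 genes other than the 9 passed the filter. Of these 50, 1 was called (Fgf18), where 0.0628% of all genes tested were, and 14 had an unadjusted limma p under 0.05, where 13% of all genes did. In 10 of them both mutants lay above both controls, an arrangement of 9.89% of all genes, and in 12 they lay below, an arrangement of 35.8%. Pthlh, counted in both the 14 and the 10, passed the filter only through its level in the mutants. The median log2 change of the 50 was -0.02, beside -0.08 over all genes. The lists were chosen with earlier results of these data known, and the authors had reported the rise of Fgf18. These counts therefore describe the lists and do not test them.

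Among RUNX factors and their partner, Cbfb, the subunit that stabilizes RUNX proteins on DNA, was at 39.4 and 35.7 FPKM in the controls, compared with 37.3 and 38.3 in the mutants. Runx1 and Runx3 were low, with means from 1.36 to 5.17 FPKM in the groups, and had adjusted p of 0.473 and 0.697 in limma. Of the 8 tested partners and inhibitors of Twist1, 2 lay above both controls (9.89% of all genes) and 2 below (35.8%). Twist2, the close paralog of Twist1, was measured at 13.9 and 13.6 FPKM in controls versus 16.6 and 19.3 in mutants, with a log2 change of 0.38 ± 0.10 (SE) and an adjusted p of 0.274. Id1, an inhibitor of basic helix-loop-helix factors, was at 65.4 and 60.0 FPKM in controls, against 45.9 and 43.0 FPKM in mutants, with a log2 change of -0.50 and an adjusted p of 0.150, while Id3 (log2 change 0.02) and the abundant dimer partner Tcf12 (-0.07) were nearly level.

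Of 10 osteoblast regulators none was called, and 4 lay above both controls (9.89% of all genes) and 4 below (35.8%). Lef1, a transcription factor of the Wnt pathway, was at 7.07 and 9.45 FPKM in the controls, compared with 13.1 and 14.8 in the mutants, with a log2 change of 0.76 ± 0.15 (SE) and an adjusted p of 0.177 in limma. Zfhx4 was measured at 71.9 and 60.6 FPKM in controls versus 48.4 and 40.3 in mutants, with an adjusted p of 0.185. Ctnnb1, which encodes β-catenin, had a log2 change of -0.13.

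The 9 tested bone matrix and mineral genes had a median log2 change of -0.04 with none called. Postn, encoding periostin, and Col1a2, encoding a chain of type I collagen, were the most abundant at means of 538 and 340 FPKM in the controls and 544 and 329 FPKM in the mutants. Enpp1 and Ank, which help to supply the mineralization inhibitor pyrophosphate, had log2 changes of -0.32 and -0.27, with adjusted p of 0.335 and 0.412 in limma. They were the only 2 of the 9 genes with both mutants below both controls, an arrangement of 35.8% of all genes.

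The 8 tested cartilage matrix genes had a median of -0.10 with none called. Col2a1, the main cartilage collagen and a target of Sox9, was level at 41.9 and 41.5 FPKM in controls, against 40.1 and 42.4 FPKM in mutants. Col9a2, which encodes a chain of type IX collagen, was at 5.32 and 3.86 FPKM in the controls, compared with 2.00 and 2.70 in the mutants, with a log2 change of -0.93 ± 0.20 (SE) and an adjusted p of 0.195 in limma. Col11a1 and Fmod had log2 changes of -0.15 and -0.49, and their groups overlapped. Acan, encoding the aggrecan core protein, did not exceed 0.0955 FPKM in any embryo.

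Of 4 tested chondrogenic signals and regulators, none was called. Pthlh, which encodes the parathyroid hormone-related protein that delays cartilage maturation, was measured at 0.808 and 0.712 FPKM in controls versus 2.13 and 2.59 in mutants, with a log2 change of 1.51 ± 0.22 (SE) and an adjusted p of 0.102. Its control mean, 0.76 FPKM, was under the filter of 1 FPKM, so that it was tested only because of its level in the mutants. No support for a change is drawn from its p-value. Its receptor gene Pth1r had a log2 change of -0.28, and Trps1 one of 0.38. Of 8 growth signal genes, Fgf18, a growth factor for bone and cartilage cells, was the only gene called, at 15.4 and 14.6 FPKM in controls, against 29.0 and 30.4 FPKM in mutants, a log2 change of 0.98 ± 0.09 (SE) with an adjusted p of 0.0212 in limma. The call was lost without a filter on low values (adjusted p = 0.155), without a variance trend (0.102) and without the wild-type control (0.115), with the log2 change between 0.94 and 1.06 in all 12 alternative fits in limma. The FGF receptor genes Fgfr1 and Fgfr2 had log2 changes of 0.18 and -0.19, and Bmp4 one of -0.13.

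**Figure D4:**
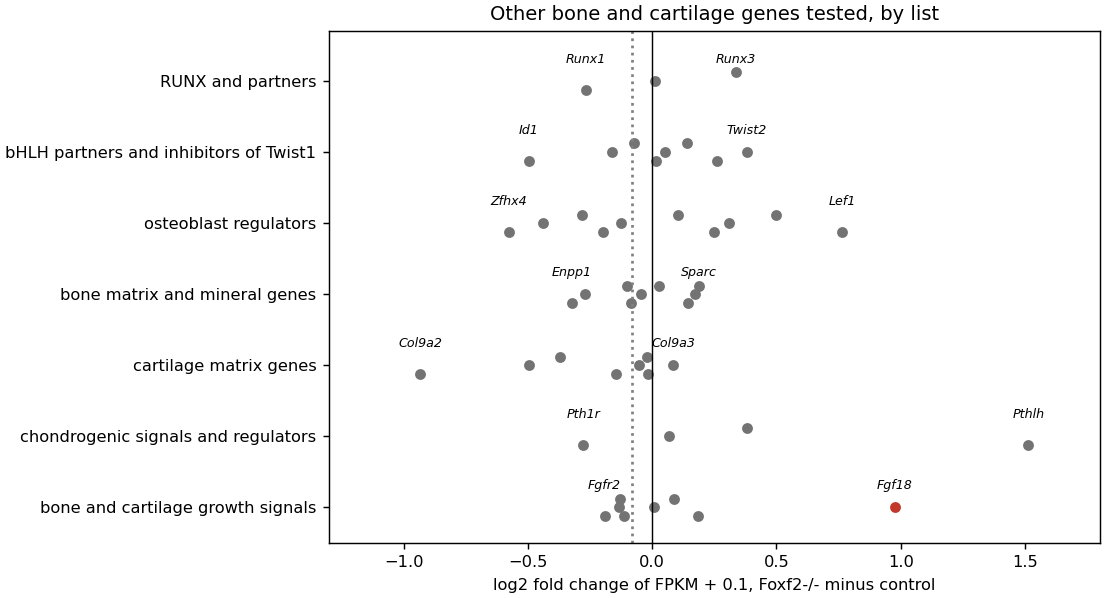
Log2 fold change on FPKM + 0.1 of the Foxf2-/- embryos against the controls (x axis) for each tested gene of the 7 lists other than the 9 genes themselves (y axis, 1 row per list; small vertical offsets only separate the points). The gene at each end of a list is named, the dotted line is the median of all tested genes, and the red point is Fgf18, the 1 gene called.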

How the data were processed

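RNA-seq libraries from 4 embryos were sequenced on an Illumina instrument, and the reads were aligned by the authors to mm9 with TopHat and Bowtie (version 0.12.7 in the submitters' processing notes). The deposited tables hold FPKM for 28107 RefSeq transcript entries, together with the deposited coverage signal. Per the file headers and names these are Cufflinks transcript tables. The Cufflinks version, any bias correction and the read totals are not given in the sources used here, so depth in reads is unknown, and no count test was run because the values did not fall on steps of whole reads.

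Here entries of at least 200 bases were summed by symbol, and 10 genes with a failed estimate were left out. Genes with a mean of at least 1 FPKM over the 4 embryos were tested on log2(FPKM + 0.1) with limma 3.58.1 (R 4.3.3, variance trend, Benjamini-Hochberg adjustment), Foxf2-/- against both controls as 1 group. A fold change on this scale understates that of low genes. The fit was tested on simulated data with a spread taken from these embryos. Of the planted changes, 67 of 100 at 2-fold and 87 of 100 at 4-fold were called, with 0 false calls. No change was planted in the lowest genes and none smaller than 2-fold. A gene that was not called may therefore still have changed. The p-values rest only on the spread between these embryos, shared in part across all tested genes. In the control group that spread includes the difference between a Foxf2+/+ and a Foxf2+/- embryo. The alternatives were other pseudocounts (1 and 0.01 FPKM), median-ratio scaling, other filters, entries of every length, no variance trend, separate genotype means, a threshold of 2-fold and leaving out each embryo. The 9 genes, the lists and the tests were chosen with earlier results of these data known. From each list the text names the 2 genes with the highest mean FPKM, the 2 with the largest change and any gene called; late bone genes and Acan were named after their values were seen. Of the items so chosen, 1 list gene and 1 upstream sequence are not reported here. Upstream bases were read from the mm9 genome at the starts of the deposited entries, with strand from the GENCODE annotation.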

Additional observations from a re-analysis of the deposited data

How the results depend on the processing

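None of the 9 genes, where tested, was called by limma under any of the 12 alternative fits or at a threshold of 2-fold. Of 108 recomputed changes of the 9 genes, 3 had the other sign, each when an embryo was left out: Sox6 ranged from -0.0144 (without the first Foxf2-/- embryo) to 0.0465, Sp7 from -0.24 (without the second) to 0.40, and Spp1, which was not tested, from -0.87 to 0.07 (without the Foxf2+/- control). Adjusted p for Twist1 ranged from 0.240 to 0.843 and its log2 change from -0.34 to -0.22. With no filter on low values, 1 of the 9 genes, Ibsp, differed by more than 1.5-fold from both controls. The share of all 17171 genes in that fit that did so was not computed, so no result about Ibsp is read from this. When an embryo was left out, the number of the 7 tested genes with no overlap between the groups ranged from 4 to 7. It was 7 without the second Foxf2-/- embryo, where 61.2% of the 11154 genes tested lay below and 14.9% above. In the other leave-out fits, from 44.4% to 56.9% of all genes lay below and from 17.3% to 28.4% above. With 1 embryo in a group most genes did not overlap, so these counts are not read as a result about the 9 genes.

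Over all genes, the number called was 13 with a pseudocount of 1 FPKM, 27 with entries of every length and 20 with separate genotype means, and 0 with limma without a filter (1777 genes at an unadjusted p under 0.05) or without a variance trend (1264 genes). Leaving out an embryo gave 7 to 38 calls, the 38 without the Foxf2+/- control and 11 without either mutant. The Fgf18 call held in 9 of the 12 fits. No paired analysis was run, since the sample labels pair no control embryo with a mutant. Few sequenced bases lay behind Ibsp and Spp1, whose changes cannot be sized.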
